A study of Mus musculus with 6 samples.

Results

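Contactins and the L1 family are adhesion molecules of the immunoglobulin superfamily that sit on axons, and the 10 mouse genes that encode them were followed here through sorted sensory ganglion cells. They are the 6 contactin genes Cntn1 to Cntn6 and the 4 L1-family genes L1cam, Nfasc, Nrcam and Chl1. The genes were chosen by family, not by level, and each was found by its Ensembl identifier among the 41388 genes counted in every library.

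RNA came from cells of thoracic T11 to sacral S1 dorsal root ganglia (DRG) of C57BL/6 mice taken as embryos of 18.5 dpc, late in gestation, sorted for EGFP driven from Ret, the receptor of GDNF family ligands. All 6 libraries carried the reporter. The genotype label names a transgene, Tg(Ret-EGFP)SJ, whereas the series description speaks of heterozygotes with EGFP knocked into Ret, so every library may have had 1 intact Ret allele. The only contrast in the labels is sex, with 3 male libraries (A, C and D) and 3 female libraries (A, B and C) from separate embryos. The pools held 3 embryos and 60 ganglia for A of either sex, 2 embryos and 40 ganglia for males C and D, and 1 embryo and 20 ganglia for females B and C. The latter pair were also entered as a later set of records (record set 2, against record set 1 for the other 4). Cells without EGFP were not analysed here, so the levels below describe the sorted cells and not an enrichment.

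Contactins have Ig and fibronectin type III repeats and are held at the membrane by a glycosylphosphatidylinositol anchor, so they signal through partners in the same membrane. L1-family proteins have a similar outer part but cross the membrane and bind ankyrin, which ties them to the spectrin cytoskeleton. In sensory axons both groups are known for axon growth, bundling and guidance before birth, and later for building the node of Ranvier and its flanking paranodes and juxtaparanodes, where contactins pair with contactin-associated proteins (Cntnap genes).

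The motif that distinguishes the L1 family from contactins is the one that ankyrin binds in the cytoplasmic tail. Its coding sequence is shown for the 4 members because they differ in it. The lines give coding strands from GENCODE M21 transcripts (GRCm38), 5′ to 3′, with the 5 codons of the motif in capitals and 4 codons on either side in lower case.
L1cam, chrX:73855110-73855148, minus strand: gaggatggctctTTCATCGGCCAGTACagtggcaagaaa
Nfasc, chr1:132570495-132570533, minus strand: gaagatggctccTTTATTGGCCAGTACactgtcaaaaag
Nrcam, chr12:44598474-44598512, plus strand: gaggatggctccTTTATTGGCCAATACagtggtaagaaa
Chl1, chr6:103729237-103729275, plus strand: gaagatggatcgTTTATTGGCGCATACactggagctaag

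Over the 39 bases L1cam and Nrcam were identical at 34, and L1cam and Chl1 at 25, the fewest of the 6 pairs. Counting from 1 at the first capital, Nfasc differs from L1cam by C3T and C6T, and Nrcam differs from Nfasc by G12A. Chl1 differs from Nrcam by C10G and A11C. The fourth codon is therefore CAG in L1cam and Nfasc and CAA in Nrcam, both glutamine codons, and GCA, an alanine codon, in Chl1.

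L1cam also has a pair of mini exons that are included in neurons and skipped in many other cells. They are shown because the deposited counts add all transcripts of a gene together, so neither form can be told from the levels below. Capitals mark the mini exon, whose coordinates are given, and lower case the ends of the exons spliced to it. Both intervals belong to the exon list over which L1cam reads were counted.
L1cam mini exon of 12 bases, chrX:73855652-73855663, minus strand: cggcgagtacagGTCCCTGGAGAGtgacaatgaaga
L1cam mini exon of 15 bases, chrX:73867022-73867036, minus strand: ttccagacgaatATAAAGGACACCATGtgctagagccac

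Total counts ran from 17861500 (male A) to 29330101 (the library labelled male C), and no pair of libraries agreed within sampling noise. Neuronal markers led the marker lists, with 13263 to 18427 summed CPM (counts scaled to library size with TMM factors) for 8 genes including Stmn2, Tubb3 and Uchl1. Male A stood apart. It had the highest value of the 6 for 9 of 12 satellite glia and Schwann cell markers, 6 of 7 fibroblast markers and 6 of 6 endothelial markers. Of the 14958 genes with enough counts for testing, 31.1% were highest in male A. The library labelled male C carried Xist, the RNA of the inactive X, at 58.9 CPM, against 0.418 and 0.576 CPM in male A and male D and 111.5 to 197 CPM in females, and it also carried Ddx3y (57.2 CPM) and 3 other Y-linked genes. It goes partly against its label, so the members' means and sex estimates are also given without it. Replicates are libraries of different embryos, and p-values measure the spread between these libraries only.

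All 10 genes were detected in all 6 libraries, and their order was led by Cntn1, L1cam, Chl1 and Cntn2 (plotted by library). Levels are RPKM, counts per kilobase of summed exon length, scaled to library size in CPM with TMM factors. Summed exon length can exceed that of a single transcript, for Nfasc 14145 against 4927 bases. Comparisons between genes therefore depend on the length used. The means over 6 libraries fell from 68.0 RPKM for Cntn1 to 0.696 RPKM for Cntn3. The lowest count of any member was 39, for Cntn3 in male A, so none was absent, and 7 of 10 reached at least 1 RPKM in every library. Among the 14958 genes with enough counts for testing, Cntn1 lay at the 93.4th percentile of mean RPKM, L1cam at the 92.2nd and Cntn3 at the 16.9th. In bulk RNA, fewer cells that use a gene and less RNA per cell cannot be told apart.

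**Figure D1:**
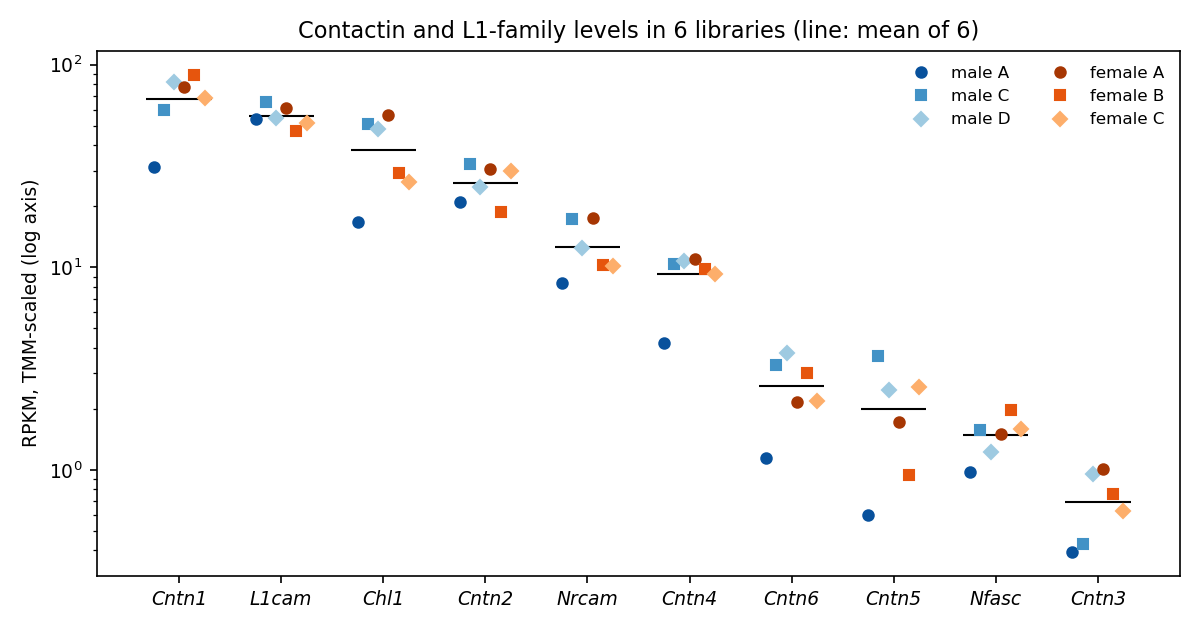
Level of each gene (RPKM with TMM scaling, log axis) in the 3 male libraries (blue) and 3 female libraries (orange), with the black line at the mean of 6. The order runs from Cntn1 at 68.0 RPKM to Cntn3 at 0.696 RPKM, and male A is the lowest point for 8 of the 10 genes.

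Cntn1, the contactin that forms the axonal side of the paranodal junction with Cntnap1, had the highest mean. Cntn1 (ENSMUSG00000055022, chr15:92051165-92341967, plus strand, GRCm38) stood at 31.2, 60.0 and 81.7 RPKM in males A, C and D and at 77.6, 89.3 and 68.4 RPKM in females A, B and C, a mean of 68.0 ± 20.7 RPKM (SD, n = 6). Male A was far below the others, and without it the mean was 75.4 ± 11.5 RPKM (n = 5). Without the library labelled male C it was 69.6 ± 22.8 RPKM. The coefficient of variation (SD over mean) of Cntn1 was 30.5% over 6 libraries and 15.2% without male A, where counting error alone gives 0.847%.

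Cntn2, also called TAG-1, is carried by growing sensory axons and later pairs with Cntnap2 beside the paranode. Cntn2 (ENSMUSG00000053024, chr1:132509427-132543256, minus strand) was at 21.1, 32.3 and 24.8 RPKM in males A, C and D and at 30.4, 18.6 and 29.8 RPKM in females A, B and C. Its mean was 26.2 ± 5.55 RPKM. Unlike Cntn1, its lowest library was female B, and the sexes overlapped over most of their range.

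Cntn4 (BIG-2), a contactin that binds the amyloid precursor protein App, followed at 9.23 ± 2.52 RPKM. Cntn4 (ENSMUSG00000064293, chr6:105677660-106699310, plus strand) was at 4.25 RPKM in male A, and the other 5 libraries lay between 9.24 and 10.99 RPKM. Those 5 libraries differed little from each other, with a coefficient of variation of 6.97%, lower than that of all but 4.1% of tested genes over the same 5.

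Cntn6 (NB-3) and Cntn5 (NB-2) stood lower by several fold, both contactins known from subsets of neurons in the brain and sensory pathways. Cntn6 (ENSMUSG00000030092, chr6:104492790-104863406, plus strand) was at 1.14, 3.28 and 3.77 RPKM in males A, C and D and at 2.15, 3.00 and 2.18 RPKM in females A, B and C. Cntn5 (ENSMUSG00000039488, chr9:9660891-10904775, minus strand) was at 0.60, 3.64 and 2.47 RPKM in males A, C and D and at 1.72, 0.941 and 2.55 RPKM in females A, B and C. Cntn5 had the widest relative spread of the 10 genes, with a coefficient of variation of 56.8% against a counting error of 6.83%, higher than in 90.2% of tested genes. It was low in male A and female B and high in the library labelled male C, and without male A and male C the value was 39.1%. Of the Cntn5 exons, 290 bases are shared with the antisense gene Gm32710 in GENCODE M21, and whether reads were counted by strand is not known here.

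Cntn3 (BIG-1) was the lowest member. Cntn3 (ENSMUSG00000030075, chr6:102163306-102464667, minus strand) was at 0.394, 0.428 and 0.953 RPKM in males A, C and D and at 1.01, 0.759 and 0.628 RPKM in females A, B and C, from 39 to 115 counts. Only female A passed 1 RPKM, and the counting error of 11.4% was the largest of the 10.

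Of the L1 family, L1cam itself was the highest and the most even. L1cam (ENSMUSG00000031391, chrX:73853778-73896105, minus strand), which guides axons and holds bundles together, was at 53.9, 65.3 and 54.4 RPKM in males A, C and D. It was at 61.1, 47.2 and 51.7 RPKM in females A, B and C, a mean of 55.6 ± 6.55 RPKM. Its coefficient of variation of 11.8% was lower than in all but 9.79% of tested genes, and male A lay in the middle of the others. Without the library labelled male C, its highest library, the mean was 53.7 ± 5.06 RPKM. A 100-base stretch of its exons is shared with Arhgap4, a gene with 86 counts over all libraries.

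Chl1, the close homologue of L1, which takes part in guidance and sensory axon branching, varied far more. Chl1 (ENSMUSG00000030077, chr6:103510876-103733035, plus strand) was at 16.8, 50.7 and 48.1 RPKM in males A, C and D and at 56.6, 29.2 and 26.3 RPKM in females A, B and C. Male A was lowest, females B and C of record set 2 came next, and the other 3 libraries lay close together. The mean was 37.9 ± 15.96 RPKM, with a coefficient of variation of 42.0% over 6 libraries and 32.1% without male A.

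Nrcam, which joins L1-family and contactin partners on axons and is later found at the node, showed a like order at a lower level. Nrcam (ENSMUSG00000020598, chr12:44328885-44601846, plus strand) was at 8.31, 17.4 and 12.4 RPKM in males A, C and D and at 17.4, 10.2 and 10.2 RPKM in females A, B and C, a mean of 12.7 ± 3.90 RPKM. The library labelled male C and female A were the highest. Without the former the mean was 11.7 ± 3.51 RPKM.

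Nfasc encodes neurofascin, whose neuronal form anchors sodium channel clusters at nodes and whose glial form sits at the paranode. Nfasc (ENSMUSG00000026442, chr1:132564690-132741797, minus strand) was at 0.976, 1.58 and 1.23 RPKM in males A, C and D and at 1.51, 1.97 and 1.60 RPKM in females A, B and C. Its mean of 1.48 ± 0.342 RPKM was the lowest of the L1 family. Its summed exon length of 14145 bases was the longest of the 10 genes, and its place in the order depends on the length used. Per kilobase of its longest coding sequence (4041 bases) the mean was 5.17 ± 1.20, above Cntn5 at 2.73 ± 1.55 on the same scale, a comparison added after the values were seen. These counts do not separate the neuronal and glial forms.

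Without the library labelled male C the 10 genes kept their order. The means over the other 5 libraries were then 35.4 ± 16.4 RPKM for Chl1, 24.9 ± 5.21 RPKM for Cntn2 and 8.99 ± 2.75 RPKM for Cntn4. Cntn6 was then at 2.45 ± 0.990 RPKM, Cntn5 at 1.66 ± 0.880 RPKM, Nfasc at 1.46 ± 0.378 RPKM and Cntn3 at 0.749 ± 0.251 RPKM.

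Few neighbours in the order were separated. Only Cntn2 and Nrcam, and Cntn4 and Cntn6, had 6 values that did not overlap. The order held in 6 of 6 libraries for L1cam over Chl1, Cntn2 over Nrcam, Nrcam over Cntn4, Cntn4 over Cntn6 and Nfasc over Cntn3. It held in 4 of 6 for Cntn1 over L1cam, Chl1 over Cntn2, Cntn6 over Cntn5 and Cntn5 over Nfasc. Cntn1 was 0.579 times L1cam in male A and 1.89 times L1cam in female B, so which of the 2 led varied with the library.

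The 10 genes summed to 216 ± 43.8 RPKM, from 138.6 in male A to 260.5 in female A, to 232 ± 24.3 RPKM without male A and to 210.7 ± 46.5 RPKM without the library labelled male C. Contactins made up 42.3% (male A) to 58.0% (female B) of this sum, and the 4 highest members together 85.0% to 88.7%. The share of L1cam was 38.9% in male A and 22.4% to 26.6% elsewhere, while Cntn1 ran from 22.5% in male A to 42.3% in female B. Chl1 took 20.0% to 21.7% in the library labelled male C, male D and female A and 12.1% to 13.8% in the other 3.

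**Figure D2:**
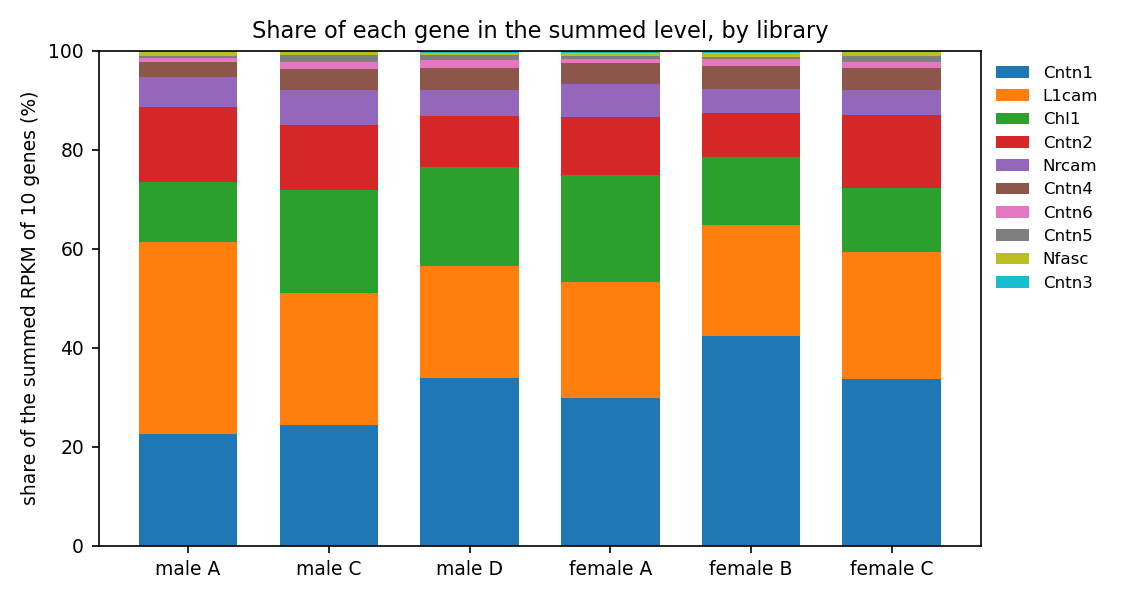
Share of each gene in the summed RPKM of the 10 genes (%), 1 bar per library. Cntn1, L1cam, Chl1 and Cntn2 fill 85.0% to 88.7% of every bar, and L1cam has its largest share, 38.9%, in male A.

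Members that are neighbours within the family on a chromosome stood at different levels. Cntn3, Chl1, Cntn6 and Cntn4 lie in that order within 4.54 Mb of chromosome 6, with 1 to 3 other counted genes in each gap. Chl1 exceeded Cntn3, 1046 kb away, by 38.5 to 118 times and Cntn6, 760 kb away, by 9.74 to 26.3 times. Cntn4 exceeded Cntn6, 814 kb away, by 2.84 to 5.11 times. Ratios of other neighbouring genes were not computed. On chromosome 1, Cntn2 and Nfasc lie on the same strand with 21.4 kb and no counted gene between them, and Cntn2 exceeded Nfasc by 9.45 (female B) to 21.6 times (male A).

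The 250 bases before the start of Chl1 and of Cntn3 are shown because these are the highest and lowest members of the chromosome 6 group. They are coding-strand sequences from RefSeq (GRCm38.p6), 5′ to 3′, with each CG dinucleotide in capitals.
Chl1, chr6:103510626-103510875, plus strand: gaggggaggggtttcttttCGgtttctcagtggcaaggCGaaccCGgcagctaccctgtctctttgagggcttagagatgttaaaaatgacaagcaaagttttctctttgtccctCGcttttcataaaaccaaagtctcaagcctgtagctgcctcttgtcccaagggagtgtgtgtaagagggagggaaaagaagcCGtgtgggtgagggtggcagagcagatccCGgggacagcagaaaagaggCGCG
Cntn3, chr6:102464668-102464917, minus strand: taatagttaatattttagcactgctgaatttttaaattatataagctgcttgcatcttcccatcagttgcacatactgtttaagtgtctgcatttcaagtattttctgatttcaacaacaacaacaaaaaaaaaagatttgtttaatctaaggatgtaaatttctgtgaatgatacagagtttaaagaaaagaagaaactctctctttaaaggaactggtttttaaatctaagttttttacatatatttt

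The Chl1 window holds 8 CG and 52.4% G or C, and the Cntn3 window 0 CG and 26.4% G or C. All 10 members matched the promoter table. It lists 3 promoters for Cntn1 and 2 each for Cntn4, Cntn5, L1cam and Nfasc, but a single window per gene was used. The windows of Cntn2, Cntn4, Cntn6, L1cam and Nfasc lie within the gene intervals given above. That of Cntn4 starts at base 106118515, where the gene starts at 105677660. Their CG counts were 7 for Cntn1, 10 for Cntn2, 2 for Cntn4, 24 for Cntn5, 3 for Cntn6, 12 for L1cam, 4 for Nfasc and 25 for Nrcam. Over 32851 promoters of the same length the median was 6, with quartiles of 2 and 16. In the windows used, the 5 members with the highest levels had 7 to 25 CG and the other 5 had 0 to 4, apart from Cntn5 with 24. The cut falls between Nrcam and Cntn4, whose levels overlapped. Whether the other listed promoters give the same split, or whether CG count goes with level over all genes, was not tested. On either strand, GGGCGG was found in L1cam, Nfasc and Nrcam (32.7% of all promoters), CCAAT in Cntn1, Cntn5 and L1cam (33.9%) and TATAAA in 0 members (12.4%). These matches describe the letters only.

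Across libraries, 8 of the 10 genes had their lowest value in male A, the exceptions being L1cam and Cntn2, which were lowest in female B. Of all tested genes, 28.4% were lowest in male A and 31.1% were highest there. On log2 CPM centred on each gene's own mean, Cntn5 was at -1.35 in male A, Cntn1 and Chl1 at -1.05, Cntn4 and Cntn6 at -1.04 and L1cam at -0.04. The median of the 10 was -0.83 in male A and between -0.04 and 0.31 in the other libraries. The summed exon lengths of the 10 genes ran from 4531 to 14145 bases, and in male A tested genes of long summed exon length were low at the median. Of tested genes with at least 8 kb of exon, 57.8% were lowest in male A with a median of -0.41, against 19.1% and 0.10 for genes under 2 kb (the heat map shows both). Of the 10 genes, 4 have at least 8 kb, 4 have 6 to 8 kb and 2 have 4 to 6 kb. Of tested genes of 6 to 8 kb, 42.7% were lowest in male A, with a median of -0.20. Cntn5, with 4531 bases and 52 counts in male A, was at -1.35 there, where the median of its class, 4 to 6 kb, was -0.03. Cntn1, with 9433 bases, was at -1.05, and Cntn2, with 9304 bases, at -0.28.

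**Figure D3:**
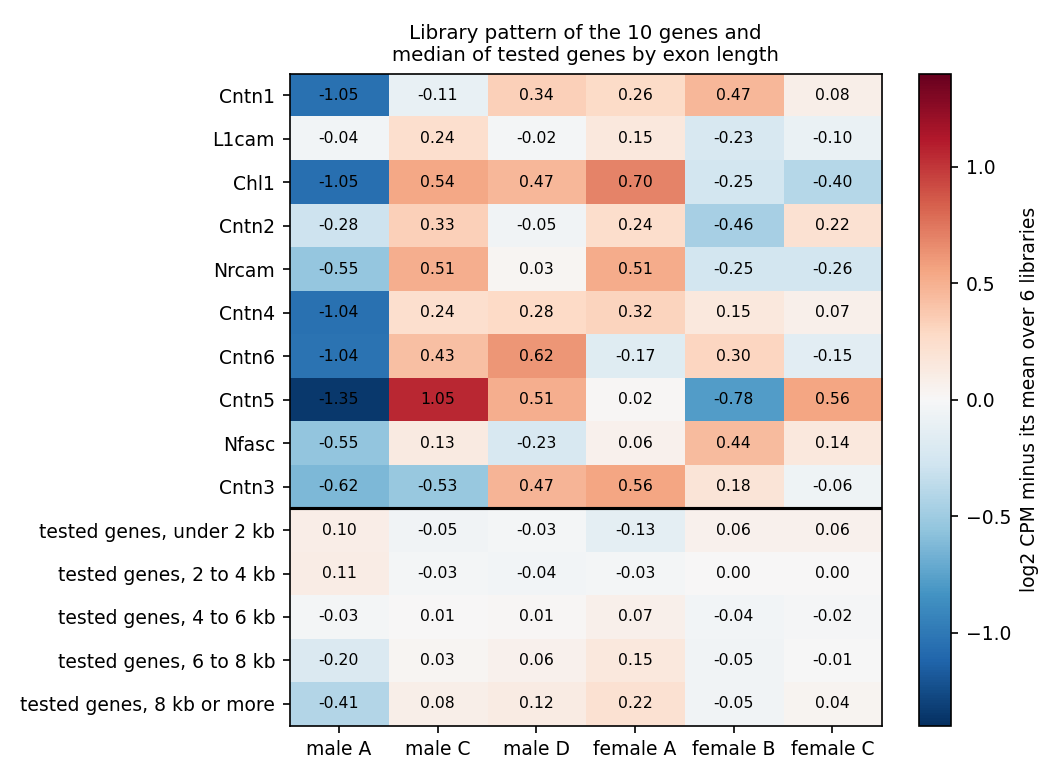
Log2 CPM minus the gene's mean over 6 libraries, for the 10 genes (upper rows) and as the median of all tested genes in 5 classes of exon length (lower rows). Male A is at -1.35 for Cntn5 and -0.04 for L1cam, and its class medians run from 0.10 under 2 kb to -0.41 at 8 kb or more.

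Markers of other cells moved with male A as well. Summed satellite glia and Schwann cell markers (12 genes) reached 4399 CPM there against 1790 to 2218 CPM elsewhere. Of the 3 with the highest means, Pmp22 and Apoe were highest in male A, but Fabp7 was lowest there, at 337 against 414 to 549 CPM. Fibroblast markers (7 genes) reached 2876 against 574 to 676 CPM, with Col1a2 and Col3a1 highest in male A and Dcn, at 289 CPM, within the 269 to 396 CPM of the others. Endothelial markers (6 genes, led by Pecam1, Cdh5 and Esam) reached 38.7 against 5.46 to 10.7 CPM. None of these 25 genes was at 0 in any library. Summed neuronal markers in male A, 13553 CPM, lay within the range of the others, 13263 to 18427 CPM, but 5 of the 8 genes, including Stmn2, were lowest there. Another 2 were highest there, including Uchl1 at 1450 CPM against 939 to 1165 CPM elsewhere. The part of exon length or of other cells' RNA in the low member values of male A was not tested.

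Members were also compared by their pattern across the 6 libraries. By the root mean square (RMS) difference of centred log2 CPM, the closest of the 45 pairs were Cntn1 with Cntn4 (0.19) and Cntn2 with L1cam (0.20), and the farthest was Cntn3 with Cntn5 (0.88). Among 10432 other genes of at least 5 CPM, Gm15720 (0.08) and Nufip2 (0.08) were most like Cntn1, and Wdr43 (0.03) and Ints4 (0.04) most like L1cam. Cltc (0.10) was most like Chl1. Cltc, the clathrin heavy chain gene, stood lowest in male A (281.8 CPM), next in females B and C (468 and 477 CPM) and highest in the remaining 3 (764 to 811 CPM), the order seen in Chl1. With only 6 libraries these are descriptions, and no RMS difference over all pairs of genes was set beside them. A small difference does not mean the same pattern, since Cntn2 was at 0.22 and L1cam at -0.10 in female C.

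The next question was whether sex altered the adhesion genes, taking each change as female minus male. None of the 10 genes passed the threshold, and in each the values of the sexes overlapped. By edgeR's quasi-likelihood test with Benjamini-Hochberg adjustment over 14958 genes, 0 of 10 members passed, and none reached an unadjusted p under 0.05. Over all genes 4 were called (0.0267%), all Y-linked, and 661 had an unadjusted p under 0.05. All 3 libraries of one sex lay above all 3 of the other in 0 of 10 members and in 8.06% of tested genes. Of the 10, 5 were higher and 5 lower in females, with a median log2 change of 0.000292, against -0.00359 over all tested genes. DESeq2 called 12 genes and limma voom 1, no member among them.

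The largest upward estimate was that of Cntn1, at 78.4 ± 10.5 RPKM in females and 57.6 ± 25.3 RPKM in males (SD, n = 3 each). Its log2 change was 0.44 with a standard error of 0.32 and a 95% interval from -0.27 to 1.16 (edgeR, adjusted p = 0.961). It was 0.15 without male A, 0.47 without the library labelled male C and 0.78 without male D. Cntn3 was at 0.44 (-0.51 to 1.39) and Nfasc at 0.42 (-0.13 to 0.98), and Cntn4 was at 0.24 (-0.50 to 0.98). Without the library labelled male C, Cntn3 was at 0.25, Nfasc at 0.62 and Cntn4 at 0.42. Without male A, Cntn3 was at 0.23, Nfasc at 0.27 and Cntn4 at -0.08, and Cntn3 was at 0.96 without male D. Nfasc was the one member whose estimate kept its sign in all 18 alternatives, some of which leave 1 library in an arm.

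The lowest estimate belonged to Cntn5, with a log2 change of -0.37 and an interval from -1.68 to 0.95, and without the library labelled male C it was 0.18. Cntn6 was at -0.16 (-1.07 to 0.74). X-linked L1cam was at -0.12 (-0.55 to 0.31), the narrowest interval of the 10, at 53.3 ± 7.12 RPKM in females and 57.8 ± 6.43 RPKM in males. Chl1 (-0.04, from -1.01 to 0.92), Nrcam (-0.01, from -0.73 to 0.70) and Cntn2 (0.01, from -0.56 to 0.58) had estimates near 0. Without the library labelled male C, Chl1 was at 0.20, Nrcam at 0.28, Cntn2 at 0.20, L1cam at -0.02 and Cntn6 at -0.01. Adjusted p-values of the 10 genes ran from 0.961 to 0.998, and their lowest value over the alternatives was 0.38, for Cntn1. The interval of Chl1 includes changes from -1.01 to 0.92, so these libraries do not show that the sexes are alike.

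**Figure D4:**
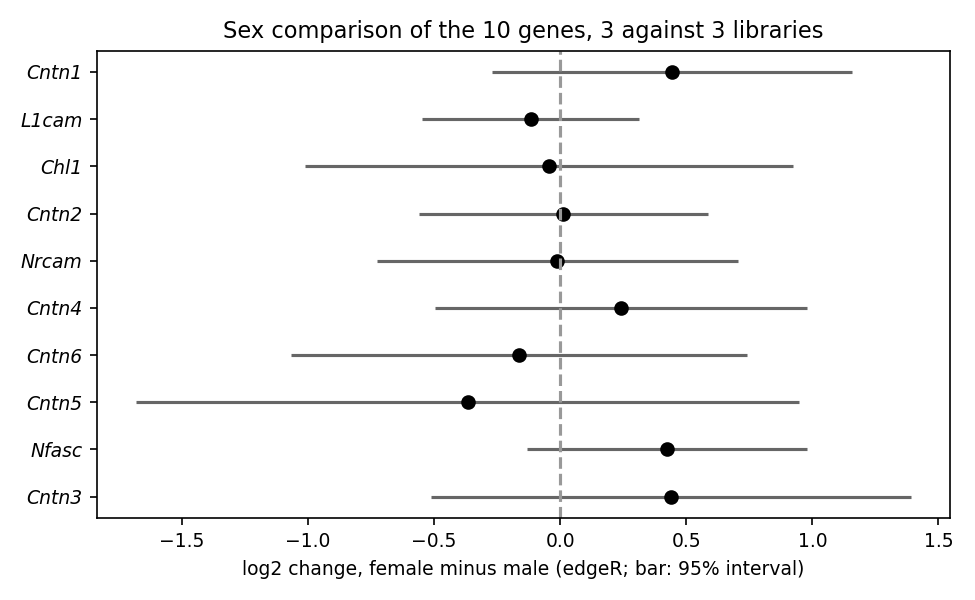
Log2 change of the 10 genes, female minus male (points, edgeR) with 95% intervals (bars), 3 against 3 libraries. Every interval crosses 0, from L1cam (-0.55 to 0.31), the narrowest, to Cntn5 (-1.68 to 0.95), the widest.

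Because Chl1 and Nrcam were low in females B and C, record set 2 was compared with record set 1, with sex as a term, after the values were seen. Chl1 was at 29.2 and 26.3 RPKM in record set 2 and 56.6 RPKM in female A, a log2 change of -1.03 with a standard error of 0.57 and an interval from -2.36 to 0.31. Nrcam had -0.77 (standard error 0.41, from -1.74 to 0.19), and L1cam -0.31 and Cntn2 -0.33. In edgeR's test 0% of the 14958 genes and 0 of 10 members were called, and 483 genes had an unadjusted p under 0.05. Of the 10, 6 were lower in record set 2. Record set and number of pooled embryos cannot be told apart, since both libraries came from single embryos.

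Binding partners of the members, related node and cytoskeleton genes, L1-family proteases and other axonal Ig adhesion genes were surveyed in 6 lists. These are called partner lists for short, though not all their genes encode proteins that bind a member. They held 62 genes, of which 61 were tested between the sexes (Dcc, with 25 counts in all, was not). None was called, against 0.0267% of all genes, and none was called without the library labelled male C. Means of the genes in these lists are over all 6 libraries. Of the 61, 4 had an unadjusted p under 0.05, 34 were higher and 27 lower in females.

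Contactin-associated proteins were led by Cntnap4, at 52.3 ± 12.5 RPKM. Cntnap2, the juxtaparanodal partner of Cntn2, was at 8.12 ± 2.72 RPKM and Cntnap1, the paranodal partner of Cntn1, at 5.23 ± 1.30 RPKM. In all 6 libraries Cntn1 stood above Cntnap1, at 7.32 to 16.7 times its level, and Cntn2 above Cntnap2, at 1.62 to 5.77 times its level. Other contactins were not compared with Cntnap genes in this way. Of 7 Cntnap genes, 5 were higher and 2 lower in females, with a median log2 change of 0.32 against -0.00359 over all genes. Of the 7, 4 were lowest in male A.

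The membrane skeleton list was led by the spectrin genes Sptbn1 at 94.4 ± 26.3 RPKM and Sptan1 at 58.6 ± 9.23 RPKM, with protein 4.1B (Epb41l3), which links Cntnap proteins to actin, at 65.7 ± 17.7 RPKM. The ankyrin genes that serve the L1-family motif stood at 25.2 ± 8.09 RPKM for Ank2, 8.84 ± 2.26 RPKM for Ank3, the nodal ankyrin, and 0.519 ± 0.0945 RPKM for Ank1. Sptbn4, the nodal spectrin, was at 0.0664 ± 0.0290 RPKM. These 4 were named after their values were seen. Of the 9 genes, 4 were higher and 5 lower in females, with a median of -0.02, and 6 were lowest in male A.

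Among partners at the node and beside it, the sodium channel subunit gene Scn2b led with 97.2 ± 44.9 RPKM, followed by Kcnab2, a potassium channel beta subunit, at 36.4 ± 4.82 RPKM and Adam22, a receptor of LGI proteins, at 22.9 ± 7.78 RPKM. Scn2b was at 162 and 147 RPKM in females B and C, which form record set 2, and at 62.0 to 72.4 RPKM in the other 4, female A included. Its log2 change between the sexes was 0.91 (edgeR, unadjusted p = 0.0117, adjusted p = 0.961). Between record sets, with sex as a term, it was 1.11. The Schwann cell genes Mag, a myelin component, and Gldn, whose product gathers Nfasc and Nrcam at nodes, were named after their values were seen. Both were highest in male A, at 4.91 and 0.449 RPKM, with at most 0.615 and 0.17 RPKM elsewhere (unadjusted p = 0.041 and 0.0273, edgeR adjusted p = 0.961). Of the 10 genes, 6 were higher and 4 lower in females (median 0.09).

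Ligands and co-receptors were led by App at 88.7 ± 17.1 RPKM, the integrin Itgb1 at 83.5 ± 15.1 RPKM and Nrp1, which pairs with L1cam as a semaphorin 3A receptor, at 47.5 ± 10.2 RPKM. The semaphorin gene Sema3a was at 0.265 ± 0.119 RPKM. Ptprz1 and Ptprg, receptor phosphatases that bind contactins, were at 9.03 ± 2.37 and 4.68 ± 1.30 RPKM. Ncan, a proteoglycan that binds L1cam, was at 43.1 and 50.3 RPKM in females B and C and 15.6 to 19.7 RPKM in the other 4 (log2 change 1.11, unadjusted p = 0.0069, edgeR adjusted p = 0.961). Of the 11 genes, 6 were higher and 5 lower (median 0.05). Sema3a, Ptprz1, Ptprg and Ncan were named after their values were seen.

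Among genes for proteases that cut L1-family proteins, Adam10, which sheds the outer part of L1cam, was at 36.3 ± 12.8 RPKM and Bace1, which cuts Chl1, at 22.9 ± 3.07 RPKM. Adam10 was at 17.2 RPKM in the library labelled male C, 24.8 RPKM in male A and 36.2 to 47.6 RPKM in the other 4.

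Other axonal Ig adhesion genes were led by the neural cell adhesion molecule gene Ncam1 at 82.3 ± 10.4 RPKM, the synaptic adhesion gene Cadm1 at 46.7 ± 15.9 RPKM and the neuroplastin gene Nptn at 41.4 ± 11.04 RPKM. Cntn1 and L1cam, at 68.0 and 55.6 RPKM, thus had means between those of Ncam1 and Cadm1. Cadm1 was at 30.2 and 24.7 RPKM in females B and C and at 49.2 to 65.2 RPKM in the other 4. Of 20 tested genes, 11 were higher and 9 lower in females (median 0.11), and 10 were lowest in male A. In the node list 3 of 10 genes were lowest in male A and 3 highest there. The figures were 6 and 2 of 11 ligand and co-receptor genes, and 1 and 2 of 4 protease genes. Of all tested genes, 28.4% were lowest in male A and 31.1% highest there.

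**Figure D5:**
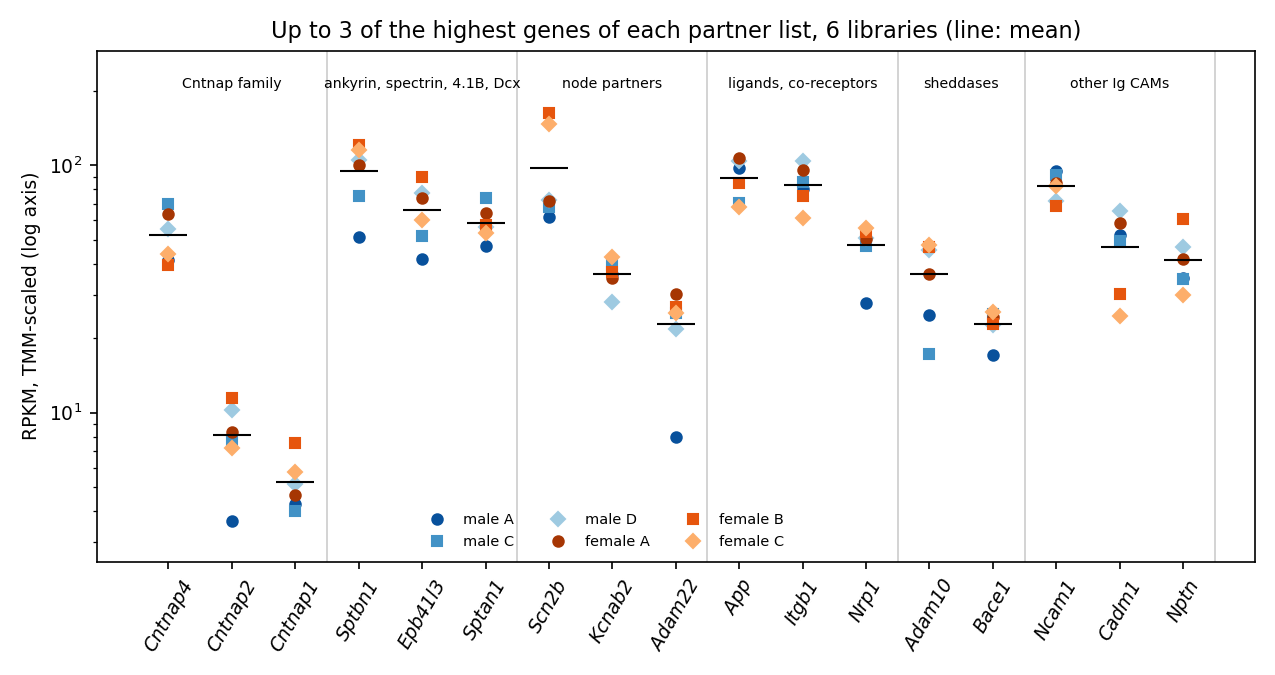
Level (RPKM with TMM scaling, log axis) of up to 3 of the highest genes of each partner list in the 3 male (blue) and 3 female (orange) libraries, with the black line at the mean. Sptbn1 (94.4 RPKM) and Scn2b (97.2 RPKM) have the highest means, while Cntnap2 (8.12 RPKM) and Cntnap1 (5.23 RPKM) are the lowest shown.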

How the data were processed

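The submitters' processing notes name Subread, without a version, featureCounts 1.4.5 and the build GRCm38.p2. How strand and multi-mapping reads were handled is not stated in them. Per the labels' protocols, 10 ng of RNA was amplified as full-length cDNA, with no molecular identifiers described. The counting errors given cover counting only, whereas the 95% intervals of log2 changes include the spread between libraries. The authors deposited raw counts, the summed exon length of each gene, and CPM and RPKM values made from them. The deposited CPM and RPKM were recomputed from the counts to within 4.5e-11 and 6.4e-12. Only counts and lengths were used further.

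Levels are RPKM or CPM with edgeR 4.0.16 TMM factors, which ran from 0.922 to 1.08. Sexes were compared with edgeR's quasi-likelihood F-test in R 4.3.3 on genes kept by filterByExpr, with sex as the only term, Benjamini-Hochberg adjustment and a threshold of 0.05. The tests were tested on simulated data. DESeq2 1.42.0, limma 3.58.1 (voom), other scalings, filters, lengths, terms and left-out libraries were alternatives. Comparisons of record sets and the lengths of GENCODE coding sequences and transcripts were added after values were seen.

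The members and lists were chosen with earlier results of these data known. Named genes are the 10 members, the 3 highest of each partner list by mean RPKM, the 3 highest of each marker list by mean CPM and the 2 genes most like each of the 3 highest members. Some genes that this rule names are not reported here. Other marker lists used were, in summed CPM over the libraries, non-peptidergic (P2rx3, Mrgprd, Gfra2) at 606 to 844 and C-fibre low-threshold mechanoreceptor (Fam19a4, Th, Slc17a8) at 192 to 286. Myelinated afferent markers (Etv1, Nefh, Ntrk2 leading) were at 215 to 412, immune (Fcer1g, C1qb, Lyz2 leading) at 7.17 to 12.4 and erythroid (Hbb-bs, Hbb-bt, Hba-a1 leading) at 10.2 to 56.0.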

Additional observations from a re-analysis of the deposited data

Results flagged for a closer look

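Of 38 values or sums checked over the 6 libraries, 7 had 1 library whose gap to its nearest neighbour was, as a share of the range, past Dixon's 95% limit for 6 values. The check took both sexes as 1 set, because groups of 3 are not tested, and chance flags about 1 in 20 such sets. In all 7 the library was male A. Cntn4 was at 4.25 RPKM in male A and 9.24 to 10.99 RPKM elsewhere. Adam22, at 7.97 RPKM, Nrp1, at 27.6 RPKM, and Bace1, at 17.1 RPKM, were likewise lowest there, against lowest values of 21.8, 47.1 and 22.5 RPKM elsewhere. Summed markers of glia (4400 CPM), fibroblasts (2880 CPM) and endothelium (38.7 CPM) were highest there.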

How the results depend on the processing

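No member was called in any of 18 alternatives. Cntn1, L1cam, Chl1, Cntn2, Nrcam, Cntn4 and Cntn3 kept their ranks on every scale, length and left-out library run. Per kilobase of coding length, however, Nrcam (25.46 ± 7.84) and Cntn4 (25.44 ± 6.95) were nearly tied. Cntn6 ranged over ranks 7 and 8, Cntn5 over 8 and 9 and Nfasc from 7 to 9. Orders within single libraries were compared on summed exon length only. The number of members at 1 RPKM in all libraries, 7, ran from 7 to 8 with a library left out, was 8 on plain RPKM and on both GENCODE lengths, and was 10 on TPM or CPM, whose units differ. The number with a coefficient of variation above the median of tested genes, also 7, ran from 6 to 8. A planned scale per RefSeq coding length was not run, and GENCODE coding length was used instead.

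The 4 genes called between the sexes became 14 with no low-count filter, 12 with DESeq2, 1 with limma voom and 0 with record set as a term or in record set 1 only, and ran from 0 to 5 with 1 library left out. Without female A the count was 0. Both record set fits rest the sex effect on female A alone, and leaving out male A and male C leaves male D alone. The lone library is then assumed to vary like the others, so these fits do not decide which estimates hold. The replicate block (the shared letters A and C, leaving 1 residual degree of freedom) gave 77 genes, with 1 gene of the partner lists, Cadm2. Same-letter libraries did not deviate together (r = -0.078 for A and 0.052 for C), and different letters gave -0.118 to 0.077. The libraries were therefore not treated as pairs, but so few libraries cannot decide whether the letters pair them.

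Member log2 changes with a different sign, none called, were as follows. Under the replicate block Chl1 was 0.40, Nrcam 0.15, Cntn6 0.15 and Cntn5 0.46. With record set as a term L1cam was 0.080, Chl1 0.55 and Nrcam 0.46, and in record set 1 only they were 0.078, 0.55 and 0.45. Without male A and male C, Cntn1 was -0.069, Cntn4 -0.11, Cntn3 -0.26 and Nrcam 0.012. Limma voom gave Chl1 0.024 and Cntn2 -0.0016. Cntn2 was -0.0053 with RLE factors, -0.018 with upper quartile factors, -0.012 with DESeq2 and -0.10 with library totals, which shift the median of all genes by -0.11. With 1 library left out, Chl1 ran from -0.48 to 0.20, Cntn2 from -0.12 to 0.21, Nrcam from -0.32 to 0.28, Cntn4 from -0.080 to 0.44, Cntn6 from -0.53 to 0.14 and Cntn5 from -0.81 to 0.18. The cause of these changes was not tested.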
